A study of Caenorhabditis elegans with 2 samples.

Results

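The 40 genes described here encode basic helix-loop-helix (bHLH) transcription factors of Caenorhabditis elegans, out of 19985 protein-coding genes in the Ensembl annotation of WBcel235. They are the 28 genes whose names start with hlh- or mxl- and 12 further bHLH genes chosen by name, and they are not a complete list of the family. Chromatin had been immunoprecipitated with an anti-GFP antibody from whole embryos of strain OP744, in 1 group of 2 biological replicates. The worms carried wgIs744, a transgene with hlh-13 fused to TY1, EGFP and 3xFLAG together with unc-119(+), in an unc-119 (tm4063) background. The embryos were obtained by egg bleaching, pooled males and females, and were labelled late embryonic and 3.5 hours old. There was no group without the tagged protein among these samples, and the labels do not name the strain behind the control library. Because embryos were taken whole, strong recovery in few cells and weak recovery in many cells cannot be told apart.

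Factors of the bHLH family bind DNA as dimers through a basic region, and most recognise an E-box, CANNTG. Tissue-specific members such as the proneural proteins usually pair with a broadly expressed E protein, which in C. elegans is HLH-2. Members with a leucine zipper after the helix-loop-helix, such as the Max, Mad and Myc-like proteins, TFEB and SREBP, pair among themselves instead. HLH-13, the tagged protein, belongs to the Ptf1a branch, and many bHLH genes are known to be regulated by other bHLH factors during neurogenesis. Whether the tagged protein was recovered at bHLH genes, its own gene included, was the question asked of the deposited regions.

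Each gene was given the region of highest signal whose summit lay between 2000 bp upstream of the gene and its 3' end. The signal is the value that the authors' peak caller wrote for each region against the control, in a unit the files do not state. It ran from 25.5 to 668 over the 30000 pooled candidate regions, with a median of 34.2, and the regions that the authors kept as optimal peaks, those of highest signal, began at 85.3. The candidate lists hold background by design, so having a region is a weak statement, and rank 1 is the highest signal. Replicate signals are on a lower scale than pooled ones, with medians of 19.4 in replicate 1 and 20.5 in replicate 2 over all candidates. With 1 group of 2 samples and no read counts, no difference could be tested over samples. Counts are therefore set beside the same counts over all protein-coding genes, with no p-value and no sampling interval. How far the counts would vary between further libraries is not known from 2 replicates.

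Sequence at the summits is shown for the 2 members of highest rank, for 3 of the 4 members among the 5000 best regions that had an E-box there, for a region just beyond the window of hif-1 and for the tagged gene. Each line gives up to 50 bp on either side of the summit on the strand of the gene, 5' to 3', on ce11, with any E-box in capitals. Bases in annotated untranslated sequence were left out, 18 at hlh-30 and 3 at ngn-1.
hlh-30 at chrIV:4034952-4035034, minus strand: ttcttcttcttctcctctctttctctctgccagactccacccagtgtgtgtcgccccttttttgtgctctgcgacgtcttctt
mdl-1 at chrX:6742067-6742167, plus strand: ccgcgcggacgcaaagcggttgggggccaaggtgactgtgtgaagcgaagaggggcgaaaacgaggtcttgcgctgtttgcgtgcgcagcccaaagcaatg
ref-1 at chrII:10216672-10216772, plus strand: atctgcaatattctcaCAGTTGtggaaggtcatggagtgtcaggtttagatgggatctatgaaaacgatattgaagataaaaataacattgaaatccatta
ngn-1 at chrIV:2628272-2628369, minus strand: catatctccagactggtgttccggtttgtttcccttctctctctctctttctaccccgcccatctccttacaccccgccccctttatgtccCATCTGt
mxl-3 at chrX:13351112-13351212, minus strand: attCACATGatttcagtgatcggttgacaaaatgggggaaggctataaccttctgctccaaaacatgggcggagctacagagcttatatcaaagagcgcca
hif-1 upstream region at chrV:20778344-20778444, plus strand: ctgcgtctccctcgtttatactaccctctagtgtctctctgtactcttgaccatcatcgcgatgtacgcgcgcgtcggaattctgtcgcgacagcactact
hlh-13 at chrX:4249382-4249482, plus strand: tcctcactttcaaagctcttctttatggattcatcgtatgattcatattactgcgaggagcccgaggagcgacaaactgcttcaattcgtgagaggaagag
No E-box lay within 50 bp of the summit at hlh-30, at mdl-1, upstream of hif-1 or in hlh-13. Each of ref-1, ngn-1 and mxl-3 shows 1 box.

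A pooled candidate region was found at 26 of the 40 bHLH genes (65.0%), where 67.5% of all protein-coding genes had one. With the replicates' own lists added, 32 of 40 had a region in some list (background 83.4%), 6 of them in replicate lists alone, and 8 had none. None of the 40 had an optimal peak, against 2.49% of all protein-coding genes. The best region ranked among the 1000 best at 2 members, hlh-30 and mdl-1 (5.00%, background 5.45%), and among the 5000 best at 11 (27.5%, background 21.1%). The median signal of the best region was 42.2 at bHLH genes and 39.8 at all genes with a region. The deposited −log10 q of the best pooled region, higher for a lower q, was 1.999 at hlh-30 and 1.231 at mdl-1. At the other members with a region it ran from 0.718 at hlh-11 down to 0.083 at lin-32. Long windows have more room for a region. Under 4 kb, 13 of 25 members had one (52.0%, background 55.9%), from 4 to 8 kb 10 of 11 (90.9%, background 74.5%), and at 8 kb and over 3 of 4 (75.0%, background 93.1%). In the same bands 4, 4 and 3 members ranked among the 5000 best, where the background was 13.5, 22.5 and 48.5%. The 11 members in the 5000 best run down to hlh-2 at rank 4651, and aha-1 at rank 5019 lay just outside.

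**Figure D1:**
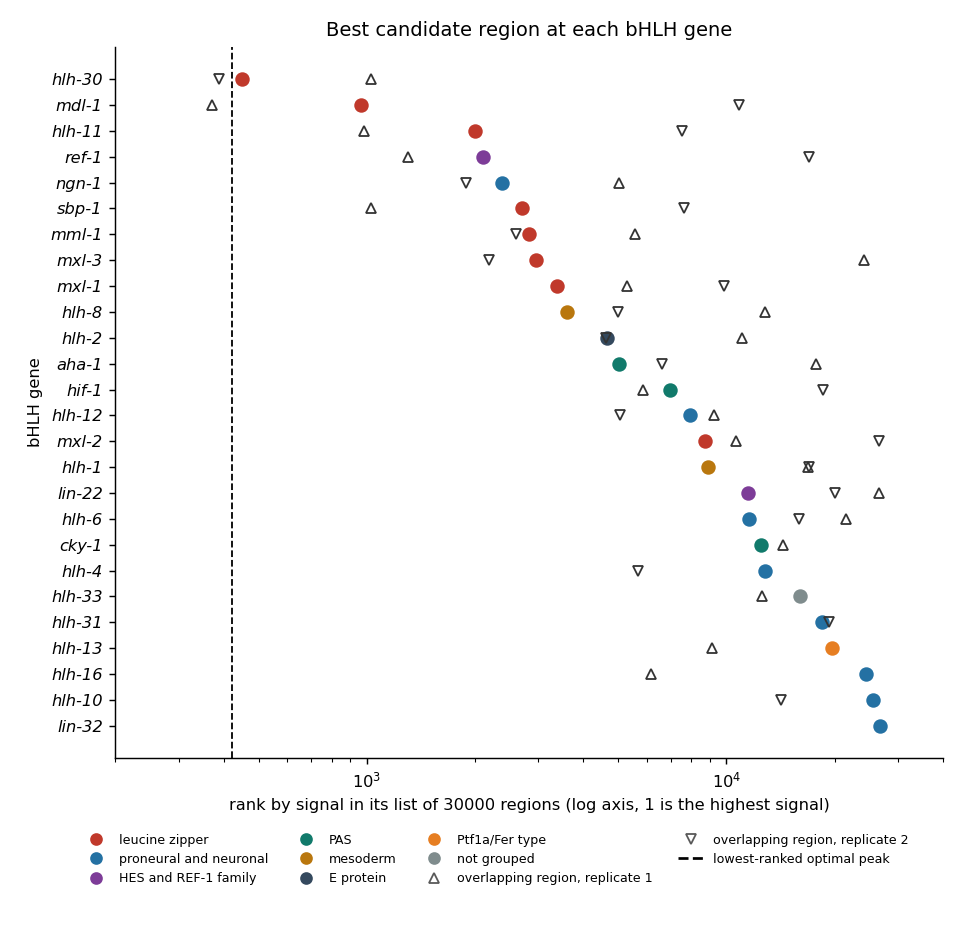
Rank (log axis) of the best pooled region at each of the 26 bHLH genes with one (filled circles, coloured by bHLH group), with the rank of the overlapping region in replicate 1 (upward triangles) and replicate 2 (downward triangles) in their own lists of 30000. No circle lies left of the dashed line, the lowest-ranked optimal peak, and at mdl-1 and ref-1 the replicates lie far apart.

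The leucine zipper genes held most of the high ranks among the 40 genes. All 8 had a pooled region, where the background was 67.5%, and 7 of the 8 ranked among the 5000 best, where it was 21.1%. All 8 best regions were overlapped, by 1 bp or more, by a candidate of both replicates, which held for 54.0% of all genes with a region. Replicate summits lay 235 bp from the pooled one at hlh-30 (replicate 1), 212 bp at sbp-1 (replicate 2) and 166 bp at mxl-3 (replicate 1). At hlh-30 the replicate 1 summit lay nearer to another, weaker pooled candidate. The other matched summits of the group lay at most 63 bp away. The windows of 3 of the 8, hlh-30, hlh-11 and sbp-1, were 8 kb or longer. At that length the background was 93.1% for a region and 48.5% for the 5000 best. A best region matched in both replicates was at 65.8% of all genes of that length, with or without a region. Over genes of any length that share was 36.5%. Of the other 32 bHLH genes, 18 had a region and 4 of them ranked among the 5000 best. The median signal was 53.3 in the leucine zipper genes and 37.3 in the other bHLH genes with a region. Without hlh-30, the longest member, the zipper median was 53.0. Among windows under 4 kb, 3 of 4 zipper genes and 1 of 21 others ranked in the 5000 best, where the share over all genes of that length was 13.5%. Zipper windows held 0.704 regions per kb (0.583 without hlh-30), the other bHLH windows 0.269 and all protein-coding windows 0.318. This split by group was described on 8 genes and was not tested.

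The highest signal among the 40 genes was at hlh-30, whose product is the worm homologue of TFEB, a regulator of autophagy and lysosome genes. Its best region (IV, 4034799 to 4035168, summit 4034984) lay 33 bp upstream of the gene's 5' end, with a pooled signal of 83.8 at rank 449. The overlapping regions had a signal of 37.2 in replicate 1 (rank 1025, summit 235 bp from the pooled one) and 49.6 in replicate 2 (rank 387, summit 6 bp away). The replicate 1 summit (4035219) lay nearer to a weaker pooled candidate (summit 4035187, signal 29.8, rank 21689). Replicate 1 had no other region overlapping the best one, so its overlap does not place a summit there. As many best regions of replicate 2 as there are optimal peaks include the overlapping region, and those of replicate 1 do not. The gene spans 20159 bp and held 21 pooled candidates in all, the next at signal 60.2, 15923 bp into the gene and 11 bp from an internal transcript start, and at 58.4, 8806 bp into the gene.

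At mdl-1, which encodes the Mad-like partner of MXL-1, the best region (X, summit 6742117) lay 234 bp upstream with a pooled signal of 67.0 at rank 962. Replicate 1 gave 49.0 (rank 372) and replicate 2 gave 22.8 (rank 10829), with summits 1 and 4 bp from the pooled one. The position was the same in both replicates and the rank was not, and the signal in replicate 2 was little above its median for all candidates. When each replicate's list was cut to as many regions as there are optimal peaks, mdl-1 was the 1 member left in replicate 1 (2.50%, background 2.44%) and hlh-30 the 1 member left in replicate 2 (2.50%, background 2.46%). No bHLH gene was left in both, where the background was 1.44%.

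The other zipper genes followed. At hlh-11, related to mammalian AP-4, the best region was intronic (III, summit 9620867, 1156 bp into the gene), with signals of 57.0 pooled, 37.5 in replicate 1 and 25.3 in replicate 2. For sbp-1, the SREBP gene that controls lipid synthesis, it was intronic as well (III, summit 11442212), with 53.5 pooled, 37.2 in replicate 1 and 25.2 in replicate 2. That replicate 2 summit lay 212 bp from the pooled one, and replicate 2 had its own best region 5011 bp into the gene. At both hlh-11 and sbp-1 replicate 1 was the higher. At mml-1, the Myc and Mondo-like gene, the region lay 1597 bp upstream (III, summit 7376328), with 53.0 pooled, 25.8 in replicate 1 and 32.2 in replicate 2. At mxl-3, a Max-like gene known to repress lipase genes in fed worms, it lay 358 bp upstream (X, summit 13351162), with 52.5 pooled, 16.02 in replicate 1 (rank 24138) and 33.4 in replicate 2 (rank 2191). Here replicate 2 was the higher, and at mxl-3 replicate 1 was below its median for all candidates. The Max genes mxl-1 and mxl-2 encode the partners of MDL-1 and MML-1. The region of mxl-1 (V, summit 11243937, 902 bp upstream, in an intron of pgap-1) had 50.9 pooled, 26.1 in replicate 1 and 23.4 in replicate 2. That of mxl-2 (III, summit 188006, 125 bp into the gene) had 40.4 pooled, 21.7 in replicate 1 and 16.3 in replicate 2, and was the 1 zipper gene outside the 5000 best, at rank 8731.

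**Figure D2:**
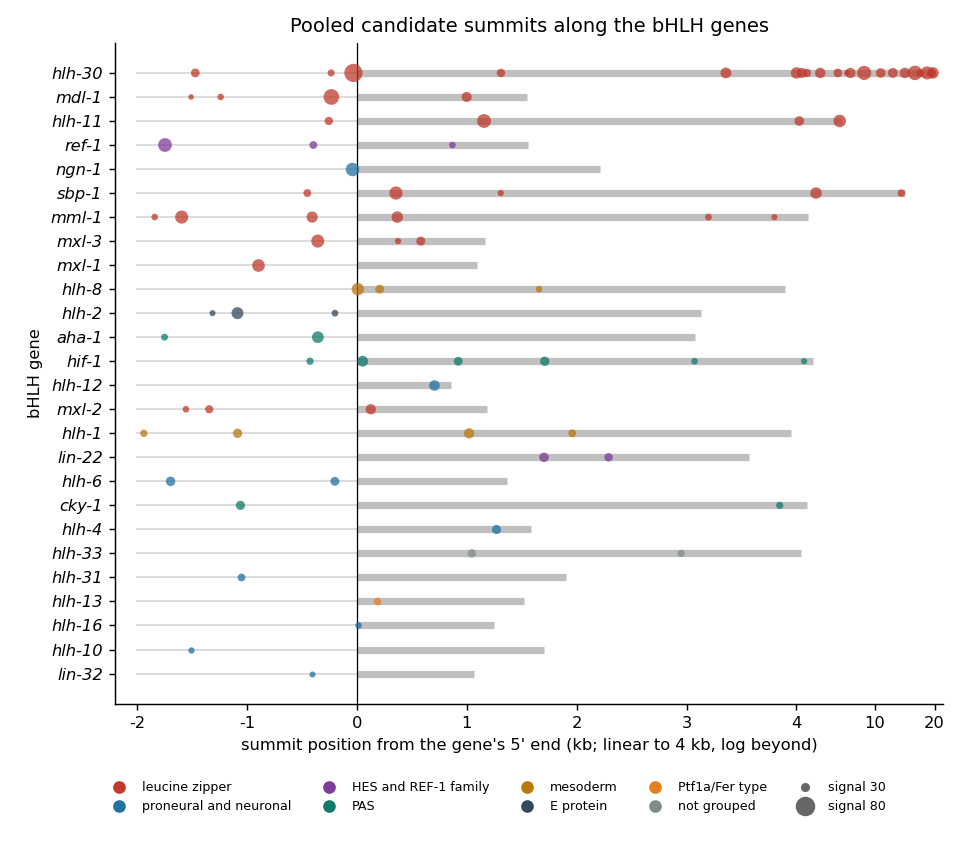
Summits of all 84 pooled candidates in the windows of the 26 bHLH genes with a region, by distance from the gene's 5' end (kb, linear to 4 kb and log beyond), with circle area rising with signal and the gene drawn in grey. The largest circle sits 33 bp upstream of the 5' end at hlh-30 and 234 bp upstream at mdl-1, but 1749 bp upstream at ref-1 and 1597 bp upstream at mml-1.

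Of the 15 proneural and neuronal genes, 8 had a pooled region (53.3%) and 1 ranked among the 5000 best (6.67%). Their median window was 3.50 kb, and over all genes with windows under 4 kb these shares were 55.9 and 13.5%. The first share was close to that background, and the second, resting on 1 gene, was below it. The group held 0.168 regions per kb (background 0.318), and 37.5% of its best regions were matched in both replicates (background 54.0%). These differences were not tested. The 1 gene among the 5000 best was ngn-1, the neurogenin homologue, with a window of 4.21 kb. Its summit lay 48 bp upstream (IV, 2628319), with signals of 54.9 pooled, 26.4 in replicate 1 and 34.4 in replicate 2. The other 7 ranked from 7947 to 26822. They were hlh-12, known from migration of the gonadal distal tip cells, hlh-6 of the pharyngeal glands, hlh-4, hlh-31, hlh-16, hlh-10 and lin-32, the Atonal homologue. The weakest was lin-32, with a signal of 27.1 and no overlapping region in either replicate. At hlh-6 the summit lay in a coding exon of a neighbouring gene, hal-3. The NeuroD homologue cnd-1 had candidates in both replicates, at 18.7 and 25.9, but at distances of 335 bp upstream and 3795 bp downstream of its 5' end, and none in the pooled list. The achaete-scute homologues hlh-3 and hlh-14, which act in neuronal specification, and hlh-32 had no region in any of the 3 lists, and hlh-15, hlh-17 and hlh-19 had regions in replicate lists alone.

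Partners and mesodermal factors had intermediate ranks. At hlh-2, the E protein gene, the best region lay 1089 bp upstream (I, summit 7195009), with a pooled signal of 47.3. The overlapping regions had 21.5 in replicate 1 and 28.4 in replicate 2. The replicate 2 summit lay 3 bp from the pooled one. That of replicate 1 (7195261) lay 252 bp away, nearer to a weaker pooled candidate (summit 7195236, rank 26892). Replicate 1 had no other region in this window, so its overlap does not place a summit at the best region. A window of 1000 bp upstream would have missed the best region and returned a region at rank 23278. The Twist homologue hlh-8 had its summit 7 bp into its untranslated first exon (X, 8116464), with 50.2 pooled, 20.4 in replicate 1 and 27.9 in replicate 2. The MyoD homologue hlh-1, a muscle regulator, had an intronic region at 40.2, with 18.6 in replicate 1 and 19.6 in replicate 2. The overlapping regions of replicate 1 ranked 11026 at hlh-2, 12833 at hlh-8 and 16847 at hlh-1, each with a higher rank number than its pooled region.

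Among the 5 PAS genes, 3 had a pooled region (background 67.5%) and none ranked among the 5000 best (background 21.1%), counts too small to set this group apart. The summit 357 bp upstream of aha-1, the ARNT homologue, lay 33 bp from the start of C25A1.15 in that gene's coding exon, and had 46.6 pooled, 18.2 in replicate 1 and 26.1 in replicate 2. At cky-1 the region (signal 36.3) lay in a coding exon of xbx-9. The dioxin receptor homologue ahr-1 and hlh-34 had candidates in 1 replicate alone. The remaining gene, hlh-33, was placed in no group; its intronic region had 33.4 pooled and 20.6 in replicate 1, with none overlapping in replicate 2.

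The hypoxia factor gene hif-1 turned on the edge of the window. Its best pooled region inside the window lay 51 bp into the gene, with a signal of 42.9 at rank 6962. A much stronger region (V, 20778209 to 20778578, summit 20778394) lay 2013 bp upstream, 13 bp outside, with a pooled signal of 84.8 at rank 430 and a −log10 q of 1.98 in the deposited list. It was intergenic, hif-1 had the nearest protein-coding start, and the overlapping regions had 36.8 in replicate 1 (rank 1070) and 37.4 in replicate 2 (rank 1241). The replicates, whose summits lay 1999 and 1998 bp upstream, put it inside the window and were closer to each other than at hlh-30 or mdl-1. Together with hlh-30 it was the bHLH region nearest to the optimal set, with signals of 84.8 and 83.8 against a lowest optimal value of 85.3. It was singled out after its values had been seen.

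The HES and REF-1 group had 2 of 7 genes with a pooled region, and the other 5 had none in any list. The Notch-responsive gene ref-1 had a region 1749 bp upstream (II, summit 10216722), with 56.4 pooled, 35.4 in replicate 1 and 19.6 in replicate 2, and lin-22, a HES homologue, one in an intron at 37.4. The 5 without were hlh-25 to hlh-29. They are close paralogs, and their windows were 34.8 to 77.0% unique, taken as the share of 32-mers that occur once in the genome. The median over all protein-coding genes was 99.2%. Of genes under 80% unique, 58.2% had a region in some list, and of genes of 80% or more, 86.2%. Among bHLH genes the counts were 1 of 6 (sbp-1, 54.8% unique) and 31 of 34, and pooled regions were at 25 of these 34, where the share over such genes was 70.2%. The labels and file manifests do not say how reads from repeated sequence were treated, and its part in the missing regions was not tested. At lin-22 31.4% of the 32-mers at the summit were unique.

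**Figure D3:**
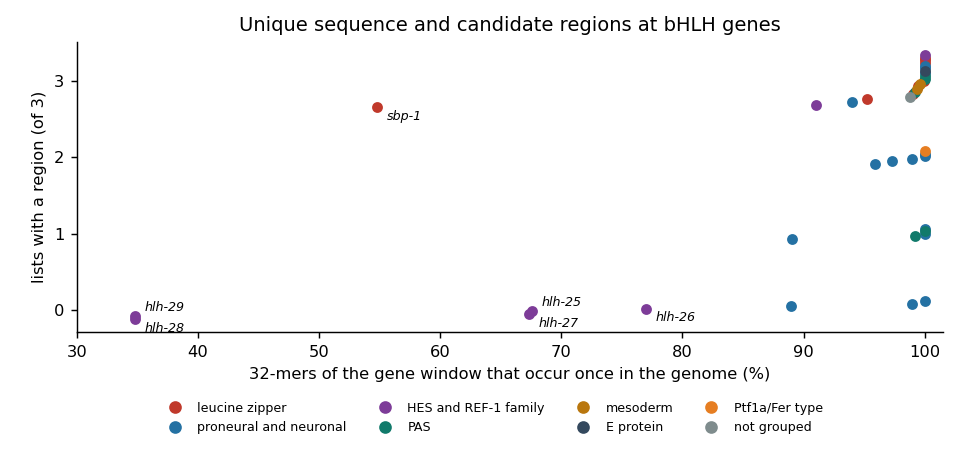
Share of unique 32-mers in the window of each of the 40 bHLH genes against the number of lists (pooled, replicate 1, replicate 2) with a candidate region there, with points spread vertically only to separate them. The 5 genes from hlh-25 to hlh-29 are the points under 80% with no region, and sbp-1 is the point under 80% with a region in all 3 lists.

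The tagged gene itself was not among the high ranks. Inside its window hlh-13 had 1 pooled region, in its coding sequence 183 bp from the 5' end (X, 4249247 to 4249616, summit 4249432), with a signal of 31.0 at rank 19688. Replicate 1 had an overlapping region at 22.7 (rank 9140), and replicate 2 had none. The transgene adds copies of hlh-13, and the labels do not say how much flanking sequence it carries. Within 20 kb on each side there were 17 pooled candidates, or 0.409 per kb, against a median of 0.284 around all protein-coding genes (percentile 81.2). The density was 0.506 per kb in replicate 1 (percentile 95.6) and 0.289 in replicate 2 (percentile 50.5), so the replicates differed in how dense its surroundings were. The nearest strong regions lay just beyond the window, 2110 bp upstream of hlh-13 and 31 bp from the start of F48D6.4 (signal 67.5, rank 924) and 2763 bp upstream (signal 77.9, rank 552). The first had 29.4 in replicate 1 and 35.8 in replicate 2, and the second 47.8 and 29.6. Whether extra copies of the locus contribute to these values was not tested.

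**Figure D4:**
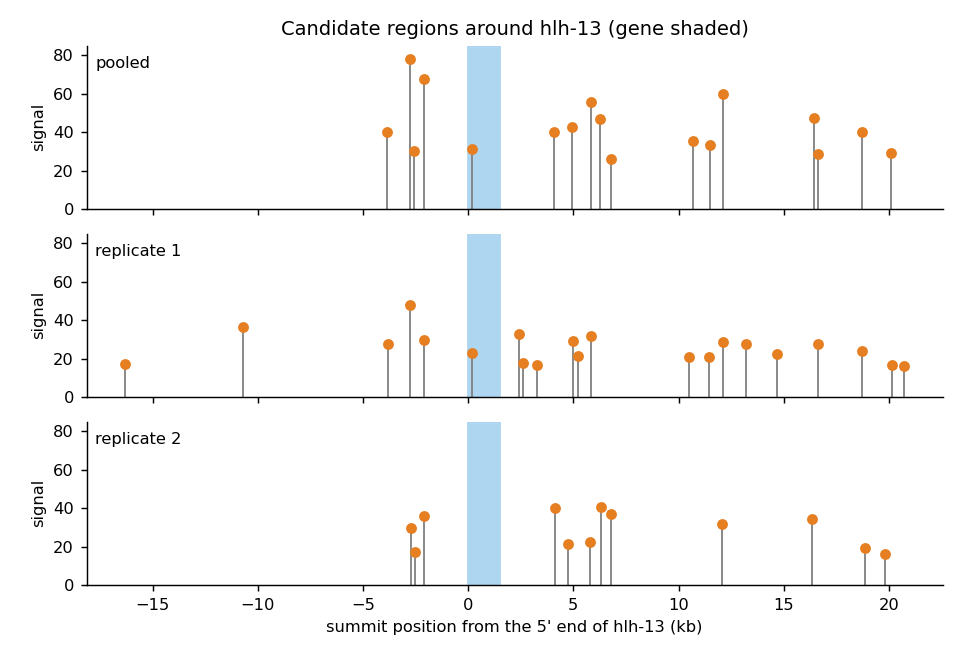
Signal of every candidate region with its summit within 20 kb of hlh-13 (gene shaded), by distance from its 5' end in kb, in the pooled list and in each replicate's list. The pooled region inside the gene has a signal of 31.0, below the 2 regions upstream at 67.5 and 77.9, and replicate 2 has none in the gene.

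What the best regions of the 26 genes shared was then described. Of the 26 summits, 10 were intergenic, 7 lay in coding exons, 6 in introns and 3 in untranslated exons. Over all genes with a region, 29.7% were intergenic, 35.9% in coding exons, 27.6% in introns and 6.88% in untranslated exons. Between 1000 bp upstream and 200 bp downstream of a transcript start of the gene lay 12 of 26 (46.2%, background 36.7%). The nearest protein-coding start was the member's own at 24 of 26 (92.3%, background 69.2%), the exceptions being aha-1 and hlh-6. The same share was 85.1% for homeobox genes named ceh-, 77.0% for nuclear receptor genes (nhr-) and 88.9% for bZIP genes (zip-). In the same order, their promoter-window shares were 53.2, 32.2 and 66.7%. No best summit lay within 100 bp of a tRNA, snoRNA, snRNA or miRNA gene, where the background was 2.80%.

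E-boxes at the summits were counted next. Within 50 bp, 12 of 26 had a CANNTG (46.2%, background 36.2%). In windows of the same width 400 bp to each side of the same summits the share was 34.6% (background 32.55%). Within 25 bp of the summit 3 of 26 had one, where the background was 20.4%. By kind, with both strands counted, CAGATG was at 3 summits, those of ngn-1 (as its reverse complement), hlh-1 and hlh-10 (11.5%, with 5.37% over all genes). CACATG was at the summit of mxl-3 and CATATG at that of mxl-1. No summit had CAGCTG (3.07% over all genes) and none had CACGTG (2.59%), the box that Myc, Max and TFEB proteins are known to bind. CAAATG was at none either (8.91%). Of the 11 members among the 5000 best regions, 4 had an E-box within 50 bp.

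How far the replicates matched at these genes was compared last. Candidates of both replicates lay in the window at 23 of 40 bHLH genes (57.5%, background 56.1%). The best pooled region was overlapped in both replicates at 18 (45.0%, background 36.5%, or 69.2% of the 26 with a region, background 54.0%), in replicate 1 alone at 4 and in replicate 2 alone at 3. Of the 23 genes, the replicates' own best summits lay within 200 bp of each other at 6 (26.1%, background 30.2%), which were ngn-1, mxl-1, hlh-8, hif-1, hlh-12 and hlh-6. Across the 23 genes the replicates' best signals had a Spearman value of 0.363 and a Pearson value of 0.45, and across 11219 protein-coding genes 0.383 and 0.799. These values are across genes, which share 2 libraries and 1 control and are not replicates.

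Other transcription factor families gave a scale for these counts. Of 63 homeobox genes named ceh-, 47 had a pooled region (74.6%) and 11 ranked among the 5000 best (17.5%), with a median signal of 37.9. The 269 nuclear receptor genes named nhr- had one in 64.7%, with 17.8% among the 5000 best, 3 genes with an optimal peak and a median of 37.3. Of 12 bZIP genes named zip-, 9 had a region and 4 ranked among the 5000 best, with a median of 42.5. The 40 bHLH genes, with 65.0%, 27.5% and 42.2, lay within the range of these families in all 3 values, and the leucine zipper genes among them lay above it with 7 of 8 in the 5000 best. These differences were not tested.

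**Figure D5:**
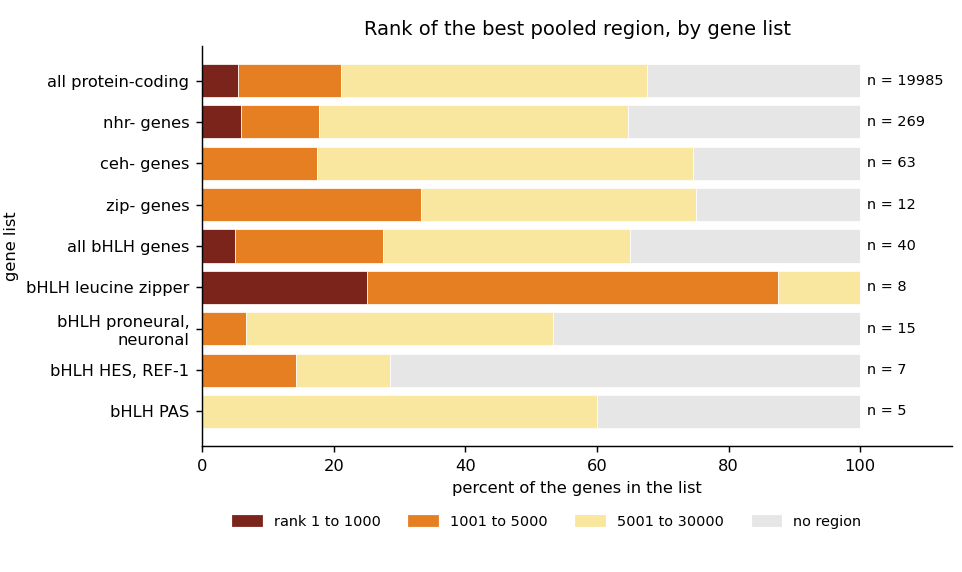
Share of genes (percent) by the rank of their best pooled region, for all protein-coding genes, 3 other transcription factor families, all bHLH genes and 4 bHLH groups, with the number of genes at the right. The bHLH leucine zipper bar has 87.5% in the 5000 best, and the proneural and neuronal bar 6.67%.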

How the data were processed

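Chromatin immunoprecipitation of HLH-13 with GFP and FLAG tags was sequenced in 2 replicates. Per the submitters' file manifests, the authors made a list of 30000 candidate regions for each replicate against 1 control library and another for the pooled alignments, and took the optimal peaks from all 3 by irreproducible discovery rate. Aligner, peak caller and versions were not stated in labels or manifests. The deposited signal value per region was used to rank regions within a list. The deposited −log10 q-values were not used for ranking. The deposited files also hold the summit offset. It was checked that the optimal peaks are the pooled regions of highest signal. Depth is unknown, because the lists hold no read counts.

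Genes came from Ensembl release 115 (WBcel235, the assembly of ce11), sequence from RefSeq's copy of that assembly. Regions were placed by summit, and an overlap of 1 bp counted as a match. All members are named, with full values for the best ranked, hlh-13 and hlh-2. Other lists were genes named ceh-, nhr- and zip-. Members and lists were chosen with earlier results of these data known. No test was made, since 1 group of 2 samples has no contrast. Placing, matching and E-box steps were tested on simulated data. Computation used pandas 2.3.3 and numpy 2.4.6 under Python 3.11.15, with scipy 1.17.1 for correlations and matplotlib 3.10.9 for plots.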

Additional observations from a re-analysis of the deposited data

How the results depend on the processing

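No member had an optimal peak under any of the 6 alternatives to the window, the placing rule and the member list that were run, and none had a best summit at a small RNA gene. With only the 28 genes named hlh- or mxl-, 16 had a pooled region, 13 a candidate in both replicates and 10 a best region matched in both. In that setting 8 had an E-box at the best summit, 7 a best region in the promoter window and 6 one among the 5000 best. These counts are on fewer genes by construction. With only the 5000 best pooled regions, 11 members had a region, with a median signal of 53.5, 4 with an E-box and 6 in the promoter window. Placing a region by any overlap with the window raised the median signal to 47.3, and this setting includes the region upstream of hif-1. Within 25 bp of the summit 3 members had an E-box. The Spearman value of the replicates was 0.156 over 18 members when regions overlapping the best pooled one were compared, and the cause was not tested. With 1 replicate's list in place of the pooled one the median signal ranged from 22.6 to 25.98, on the lower scale of those lists, and the number of members with a region from 26 to 28. The density around hlh-13 was 0.289 to 0.506 per kb by replicate, an alternative chosen after seeing the data. Under the other alternatives members with an E-box numbered 9 to 16 and those in the promoter window 8 to 15. Those matched in both replicates numbered 13 to 20 and those among the 5000 best 8 to 14. No paired analysis was possible because there is 1 group. Without read counts, a member with no region cannot be told from one just below the lists' lowest signal, 25.5 in the pooled list.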
